A study of Mus musculus with 8 samples.

Results

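Cathepsins A, B, C, D, F, H, L, S and Z and the cathepsin inhibitor cystatin C were followed in the cortex of plaque-forming mice treated with bexarotene. The 10 genes (Ctsa, Ctsb, Ctsc, Ctsd, Ctsf, Ctsh, Ctsl, Ctss, Ctsz and Cst3) were taken by symbol from the 22869 symbols of the deposited table. Each stands by its row of highest mean count, and all 10 passed the low-count filter, as did 16069 genes in all. All 8 libraries came from the cortex of APP/PS1 mice of strain C57BL/6, which carry transgenes for the amyloid precursor protein and presenilin and form amyloid plaques. Bexarotene, an agonist of the retinoid X receptors, was given in 4 libraries. The other 4, called vehicle here, are labelled as controls whose agent was glycerol at 0.2 mg/kg. The sources used here give no bexarotene dose, treatment time, age or sex. They also do not say how many animals a library holds, so each p-value reflects only how far these libraries scatter.

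Cathepsins are proteases of the endosome and lysosome that are made as inactive proenzymes and are cut to the active form in the acid lumen. Most of them, including B, C, F, H, L, S and Z, use a cysteine in the active site. Cathepsin D is an aspartic protease and cathepsin A a serine carboxypeptidase. Cystatin C is a secreted inhibitor of the cysteine cathepsins. In the brain, cathepsin S is made mainly by microglia, the resident macrophages, while cathepsins B and D are found in neurons and glia, and lysosomal proteases accumulate around amyloid plaques.

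Total counts over all rows ranged from 42413825 to 76542067 per library, and the counts of the 10 genes from 275 (Ctsc) to 82448 (Cst3). Levels are given in CPM, counts divided by the library total times its TMM normalization factor and scaled to a common size. The first principal component (36.5% of the variance) separated replicates 1 and 3 of both groups from replicates 2 and 4. The RNA of the X-inactivation gene Xist and the summed RNA of Uty, Kdm5d, Eif2s3y and Ddx3y, which are Y-linked, did not give every library 1 sex. In vehicle replicates 1 and 3 Xist was at 248 CPM or more and Y-linked RNA at 0.282 CPM or less. In vehicle replicates 2 and 4 Xist was at 0.861 CPM or less and Y-linked RNA at 134 CPM or more. All 4 bexarotene libraries had both (Xist 84.7 to 218 CPM, Y-linked 9.81 to 88.5 CPM), and replicate 4 had the most Xist and the least Y-linked RNA of them. The groups thus differed in this respect. The bexarotene libraries may each mix RNA of both sexes, which the labels do not state, so their spread and n may not mean the same as those of the vehicle libraries. Differences within replicates 1 and 3 and within replicates 2 and 4 are given for each gene because of the first principal component. They are not comparisons within 1 sex. Of the markers that fit the labelled tissue, the 10 neuron markers summed to 5160 CPM or more in every library, and Slc17a7, the vesicular glutamate transporter of cortical excitatory neurons, had means of 1243 ± 234 CPM in the bexarotene group and 1377 ± 120 CPM in the vehicle group (SD, 4 libraries each). The 9 striatum markers found in the table were also present, at 212 to 646 CPM under vehicle and 271 to 1235 CPM under bexarotene, highest in bexarotene replicates 1 and 3.

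Levels between genes were compared per kilobase of transcript. Under vehicle, Cst3 was the most abundant of the 10 at 1018 ± 25.0 CPM per kb (SD, n = 4). Ctsd followed at 213 ± 26.5, Ctsb at 109 ± 6.90 and Ctss at 63.5 ± 11.4 CPM per kb. These 4 leading genes did not overlap one another in any vehicle library. Below them Ctsl (33.9 ± 1.57 CPM per kb), Ctsa (30.5 ± 1.93), Ctsz (28.3 ± 3.42) and Ctsf (24.1 ± 1.74) formed a graded group, in which each neighbour overlapped the next in range. In both groups the place of Ctsa depends on the row used, of 3646 nt. Its other row held nearly the same counts on 2534 nt, which would raise its level per kilobase and change this order. Ctsh (6.06 ± 0.859 CPM per kb) and Ctsc (2.54 ± 0.496) were the scarcest and stood apart from the rest and from each other. Under bexarotene the 4 most abundant genes came in the same order. Ctsz, at 42.7 ± 10.8 CPM per kb, then came before Ctsl at 40.4 ± 2.01 and Ctsa at 35.1 ± 1.77, but its libraries spanned 32.2 to 57.5 and overlapped both.

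Every one of the 10 genes had a positive log2 fold change under bexarotene, although none passed the test over all genes. The differences ran from 0.018 for Ctsf to 0.59 for Ctsz, with a median of 0.33 against 0.00092 over all genes tested. Replicates 1 and 3 alone gave a median of 0.18 for the 10 genes, and replicates 2 and 4 alone gave 0.38. These subset values are plain differences of mean log2 CPM, and the median over all genes is not given for them. In the fit to all libraries, 50.2% of all genes had a positive log2 fold change. In edgeR's quasi-likelihood test with Benjamini-Hochberg adjustment, 0 of the 10 had an adjusted p below 0.05, where the share over all genes was 0.00622%. At an unadjusted p below 0.05, 8 of the 10 were higher, and the share over all genes was 4.88%. Every bexarotene library exceeded every vehicle library in 5 of the 10 (Ctsa, Ctsh, Ctsl, Ctss and Cst3), compared with 3.61% of all genes. DESeq2 called 1 of the 10, Cst3, where 0.337% of all genes were called higher. edgeR's exact test called 0 of the 10, with 0.193% of all genes called higher. Adding the replicate number as a block also gave 0 calls, with 0.00622% of all genes called. The genes were listed with earlier results of these data known, so these counts describe them and are not a test of the group.

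**Figure D1:**
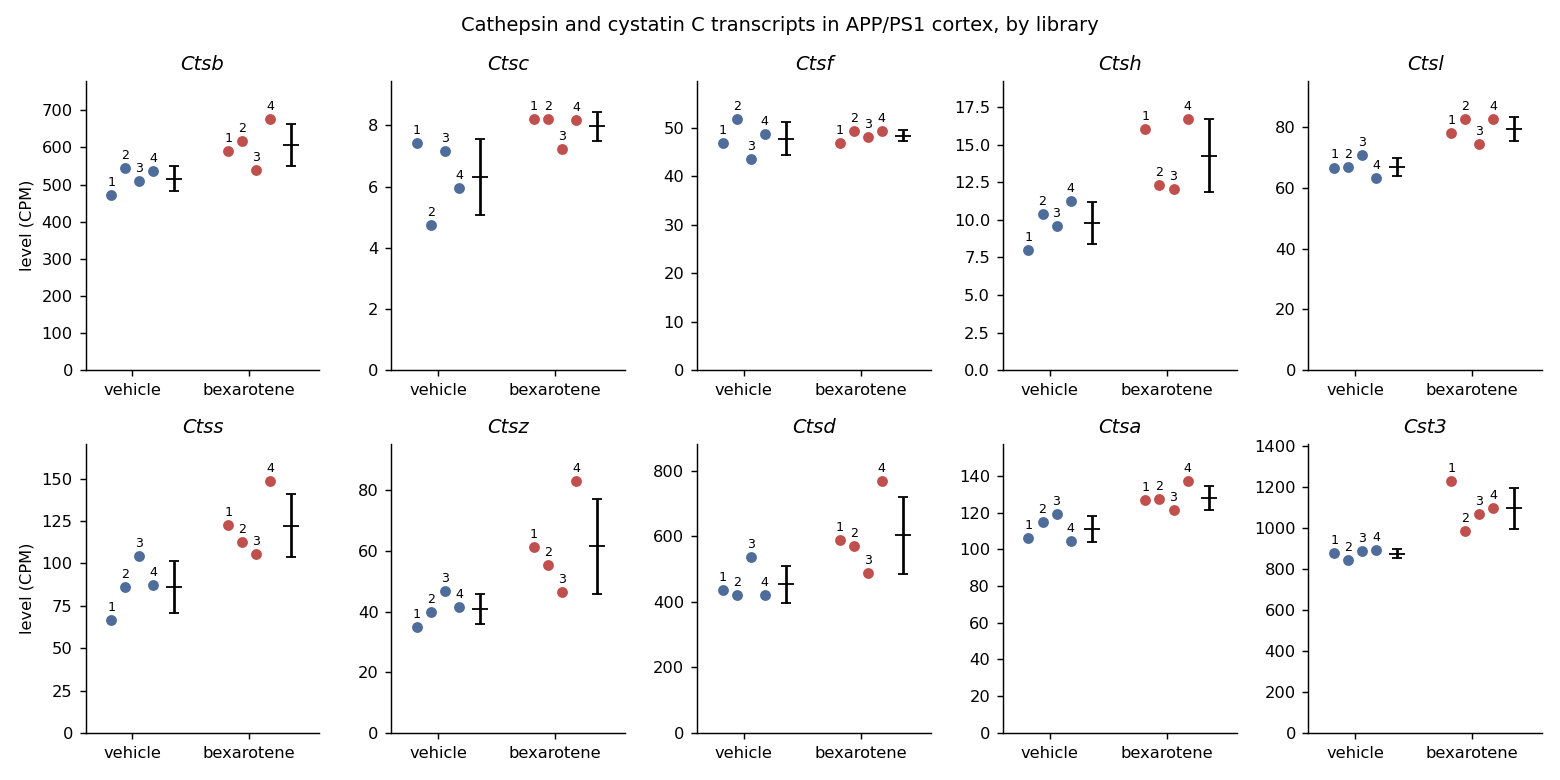
Level of each gene (y axis, CPM, from 0) in the 4 vehicle (blue) and 4 bexarotene (red) libraries, numbered by replicate; the black bar beside each group is the mean ± SD. Bexarotene replicate 4 is the highest library for 7 of the 10 genes, and the groups of Ctsf lie on top of each other.

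Cathepsin S, an elastin- and invariant chain-cutting enzyme that stays active at neutral pH, had one of the 3 largest differences. Ctss was at 122, 113, 106 and 148 CPM in bexarotene replicates 1 to 4 and at 66.6, 86.0, 104 and 87.2 CPM in vehicle replicates 1 to 4. The groups did not overlap, but only narrowly, since vehicle replicate 3 lay just under bexarotene replicate 3. Its log2 fold change was 0.51 ± 0.15 (SE), 1.42-fold, and edgeR's quasi-likelihood p was 0.00588 unadjusted and 0.424 adjusted. Permuting the group labels of the 8 log2 CPM values exactly, two-sided and unpaired, gave 0.0286, the smallest p that 4 against 4 allows. This permutation was done for all 10 genes. The log2 fold change was 0.45 in replicates 1 and 3 alone and 0.58 in replicates 2 and 4.

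Cathepsin Z, a carboxypeptidase also called cathepsin X, had the largest fold of the 10. Ctsz was at 61.4, 55.3, 46.4 and 82.9 CPM in bexarotene replicates 1 to 4 and at 34.9, 39.8, 46.8 and 41.5 CPM in vehicle replicates 1 to 4. The groups overlapped by 1 pair: vehicle replicate 3 was slightly above bexarotene replicate 3. Bexarotene exceeded vehicle by 0.59 ± 0.17 on the log2 scale. edgeR's quasi-likelihood adjusted p was 0.419, and the exact permutation p was 0.0571. Without bexarotene replicate 4, the highest library, the log2 fold change was 0.42. Replicates 1 and 3 gave 0.40, and replicates 2 and 4 gave 0.73.

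Cathepsin H, an aminopeptidase, was scarce but separated the groups. Ctsh was at 16.0, 12.3, 12.02 and 16.7 CPM in bexarotene replicates 1 to 4 and at 7.99, 10.4, 9.55 and 11.3 CPM in vehicle replicates 1 to 4. Every bexarotene library was above the highest vehicle library, replicate 4. This was a log2 fold change of 0.54 ± 0.15. edgeR's quasi-likelihood adjusted p was 0.406, and the exact permutation p was 0.0286. The difference was 0.66 in replicates 1 and 3 and 0.41 in replicates 2 and 4.

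Cathepsin C, which activates serine proteases of immune granules by removing dipeptides, was the least abundant. Ctsc was at 8.22, 8.21, 7.24 and 8.19 CPM in bexarotene replicates 1 to 4 and at 7.43, 4.74, 7.17 and 5.96 CPM in vehicle replicates 1 to 4. Bexarotene replicates 1, 2 and 4 were nearly equal, and replicate 3 lay between vehicle replicates 1 and 3. For the log2 fold change of 0.33 ± 0.16, edgeR's quasi-likelihood p was 0.0588 unadjusted and 0.594 adjusted. The log2 fold change was 0.080 in replicates 1 and 3 and 0.62 in replicates 2 and 4.

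Cathepsins B and L, the widely expressed cysteine endopeptidases, had smaller log2 fold changes than these. Ctsb was at 590, 617, 539 and 677 CPM in bexarotene replicates 1 to 4 and at 473, 545, 509.8 and 537 CPM in vehicle replicates 1 to 4. Bexarotene replicate 3 lay just under vehicle replicate 2, and the other 3 bexarotene libraries were above all vehicle libraries. Ctsl was at 78.1, 82.7, 74.6 and 82.8 CPM in bexarotene replicates 1 to 4 and at 66.8, 67.0, 70.7 and 63.1 CPM in vehicle replicates 1 to 4, with no overlap. On the log2 scale the difference was 0.23 ± 0.089 for Ctsb (edgeR's quasi-likelihood adjusted p 0.532) and 0.25 ± 0.072 for Ctsl (0.424). For Ctsl it was 0.15 in replicates 1 and 3 and 0.35 in replicates 2 and 4, and for Ctsb 0.20 and 0.26. In the GENCODE M21 annotation the exons of Ctsb share 774 bases with Fdft1 on the opposite strand and those of Ctsl share 1742 bases with the antisense gene Gm47123. The library kit was stranded, but the strand setting of the counting is not given. Whether reads of these pairs were counted apart is therefore unknown. On its own strand Ctsl shares 395 bases with Gm49230, which counting by strand would not separate.

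Cathepsin F, a cysteine cathepsin expressed in many tissues, had the smallest difference. Ctsf was at 46.9, 49.3, 48.0 and 49.2 CPM in bexarotene replicates 1 to 4 and at 46.8, 51.8, 43.6 and 48.7 CPM in vehicle replicates 1 to 4. The bexarotene libraries lay wholly inside the vehicle range. A log2 fold change of 0.018 ± 0.075 was smaller than its SE, edgeR's quasi-likelihood adjusted p was 0.973, and the sign changed with the processing. The log2 fold change was 0.070 in replicates 1 and 3 and -0.028 in replicates 2 and 4.

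Cathepsin D, the main aspartic protease of the lysosome, was the second most abundant per kilobase. Ctsd was at 588, 571, 487 and 767 CPM in bexarotene replicates 1 to 4 and at 435, 420.4, 537 and 420.6 CPM in vehicle replicates 1 to 4. Vehicle replicate 3 stood above its group and above bexarotene replicate 3, and bexarotene replicate 4 stood above all. The means differed 1.33-fold, a log2 fold change of 0.41 ± 0.14. edgeR's quasi-likelihood adjusted p was 0.483, and the exact permutation p was 0.0571. In replicates 1 and 3 the difference was 0.15, and in replicates 2 and 4 it was 0.65. Leaving out 1 library at a time gave 0.28 to 0.50. In the GENCODE M21 annotation the exons of Ctsd share 670 bases with Gm49369 on the same strand. The annotation used for counting is not given, so whether this overlap touched the Ctsd counts is unknown.

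Cathepsin A, a carboxypeptidase that also protects lysosomal neuraminidase and beta-galactosidase from breakdown, had a small difference with little spread. Ctsa was at 127, 127, 121 and 137 CPM in bexarotene replicates 1 to 4 and at 106, 115, 119 and 104 CPM in vehicle replicates 1 to 4. The groups did not overlap, with vehicle replicate 3 again the highest control. This came to 0.20 ± 0.077 on the log2 scale, with 0.527 as edgeR's quasi-likelihood adjusted p. The log2 fold change was 0.14 in replicates 1 and 3 and 0.27 in replicates 2 and 4. The other Ctsa row of the table, transcript NM_001038492 (2534 nt against 3646 nt), held nearly the same counts and gave a log2 fold change of 0.21. The exons of Ctsa share 495 bases with Pltp and 324 with Neurl2, both on the opposite strand.

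Cystatin C was the most abundant of the 10 and had the smallest unadjusted p. Cst3 was at 1227, 988, 1070.3 and 1100.0 CPM in bexarotene replicates 1 to 4 and at 879, 844, 887 and 891 CPM in vehicle replicates 1 to 4. The vehicle libraries were within 1.06-fold of each other and all lay below the bexarotene libraries. Bexarotene exceeded vehicle 1.25-fold (0.32 ± 0.081 on the log2 scale), and edgeR's quasi-likelihood p was 0.00239 unadjusted and 0.375 adjusted. DESeq2's adjusted p was 0.0477, and over all alternatives it ran from there to 1.0. On the log2 scale the difference was 0.38 in replicates 1 and 3 and 0.27 in replicates 2 and 4. Cst3 has the shortest transcript of the 10 (860 nt), and with an offset for transcript length and GC content its difference was 0.11, with an unadjusted p of 0.187. Choroid plexus markers, a tissue rich in cystatin C, were uneven. Their sum was 15.7 to 42.5 CPM under vehicle and 75.7 to 1461 CPM under bexarotene, with no overlap, as for Cst3. It was highest in bexarotene replicate 2, the library with the lowest Cst3 of its group. The part of this tissue in the Cst3 difference was not tested.

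**Figure D2:**
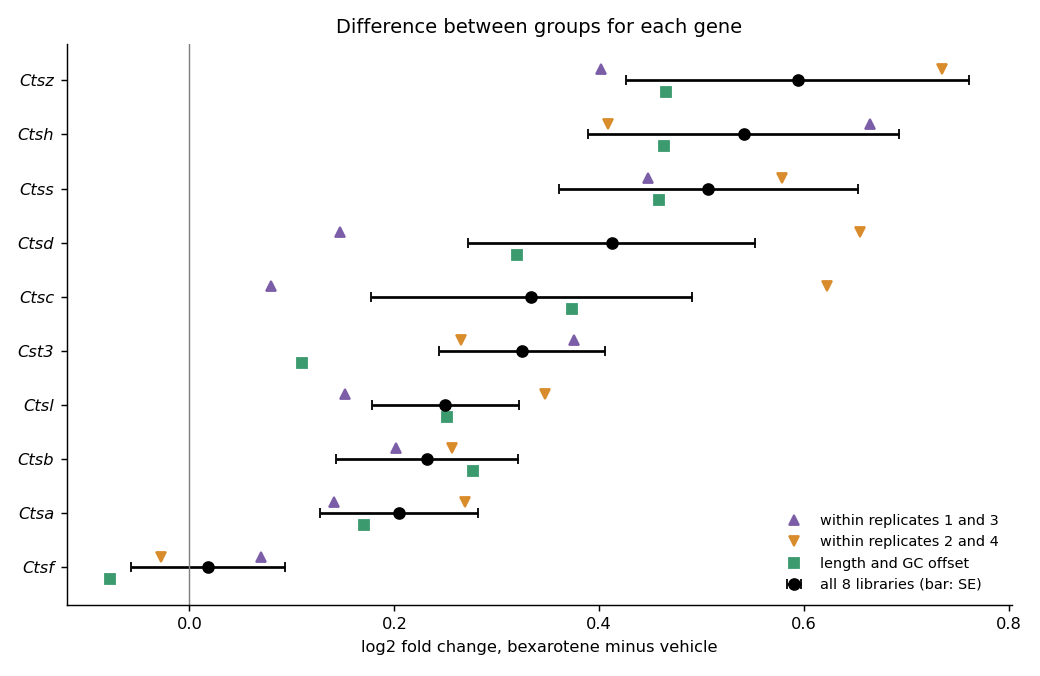
Log2 fold change of each gene (x axis, bexarotene minus vehicle), from all 8 libraries (black, bar ± SE), within replicates 1 and 3 (purple), within replicates 2 and 4 (orange) and with a length and GC offset (green). Ctsz, Ctsh and Ctss lie above 0.4 in all 4 settings, and the offset moves Cst3 from 0.32 to 0.11.

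The cysteine cathepsins and their secreted inhibitor were set side by side per kilobase. The 7 cysteine cathepsins summed to 337 ± 39.0 CPM per kb under bexarotene and 267 ± 19.8 under vehicle (SD, n = 4). Cst3 exceeded this sum 3.81 ± 0.502 times under bexarotene and 3.83 ± 0.323 times under vehicle (SD, n = 4). The ratio was between 3.28 and 4.29 in every library, and the groups overlapped. It was highest in vehicle replicate 1 and in bexarotene replicates 1 and 3, while bexarotene replicates 2 and 4 lay below all vehicle libraries.

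The same libraries led for many of the genes. Bexarotene replicate 4 was the highest of all 8 libraries for 7 genes, all but Ctsc, Ctsf and Cst3. Bexarotene replicate 3 was the lowest of its group for 8 genes, all but Ctsf and Cst3. Vehicle replicate 3 was the highest control for 5 genes (Ctsa, Ctsd, Ctsl, Ctss and Ctsz), and vehicle replicate 1 was the lowest of all libraries for 4 (Ctsb, Ctsh, Ctss and Ctsz). Likeness between profiles was measured as the root mean square difference of the log2 CPM values over the 8 libraries, after subtracting each gene's mean. Ctsa and Ctsl were the closest pair (0.045), followed by Ctsa and Ctsb (0.084). Ctss and Ctsz came next after the pairs among Ctsa, Ctsb and Ctsl, at 0.11. Ctsf and Ctsz were the farthest apart, at 0.37. The measure is not scaled to how much a gene varies, so genes with small differences between libraries lie close. The root mean square of a gene's own centred values was 0.12 for Ctsa, 0.14 for Ctsl and 0.15 for Ctsb. It was 0.33 for Ctss and 0.37 for Ctsz.

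Microglia markers were followed in the same libraries. All 14 had positive differences (median log2 fold change 0.36). In edgeR's quasi-likelihood test 0 passed over all genes, and 10 had an unadjusted p below 0.05. Their summed level was 573 to 791 CPM under bexarotene and 472 to 594 CPM under vehicle, and none was at 0. The sum was highest in bexarotene replicate 4, and vehicle replicate 3 was the highest control, as for Ctsa, Ctsd, Ctsl, Ctss and Ctsz. Tmem119, a surface protein of homeostatic microglia, was at 25.6 ± 3.31 against 19.0 ± 1.13 CPM (SD, n = 4), and Fcrls, a microglial Fc receptor-like protein, at 44.3 ± 8.70 against 29.8 ± 4.75. Trem2, the microglial lipid receptor named in the study's title, was at 37.7 ± 8.66 against 25.8 ± 7.36 CPM. Among 14 further genes of plaque-associated microglia, 12 were higher (median 0.24), edgeR called 0, and 1 had an unadjusted p below 0.05. Their sums overlapped, at 519 to 707 CPM under bexarotene and 472 to 726 CPM under vehicle. Timp2 alone made up most of these sums, at 409 ± 97.4 against 416 ± 129 CPM. Averaged over genes as log2 CPM minus each gene's mean, the list was at -0.034 to 0.365 under bexarotene and -0.594 to 0.172 under vehicle. The gene with an unadjusted p below 0.05 was Cd68, a lysosomal membrane protein of phagocytes, at 21.7 ± 2.94 against 13.9 ± 3.90 CPM. Csf1, a microglial growth factor, was at 21.4 ± 1.503 against 18.7 ± 1.06. Of 7 perivascular macrophage markers, 5 were higher, but their sums, 5.91 to 10.9 CPM and 4.70 to 13.1 CPM, overlapped fully. More microglia and more RNA per microglia cannot be told apart in bulk tissue, and the part of these markers in the cathepsin differences was not tested.

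Markers of other cell types had these values. The median log2 fold change was 0.017 for 10 astrocyte markers, 7 of them higher, and -0.0097 for 10 neuron markers, 4 of them higher. It was 0.14 for 8 oligodendrocyte markers, 7 of them higher, and 0.16 for 9 endothelial and mural markers, 9 of them higher. In each of these lists 0 were past edgeR's adjusted threshold. At an unadjusted p below 0.05 there was 1 endothelial and mural marker and 0 of the other 3 lists. Astrocyte sums were 4218 to 4777 CPM under bexarotene and 4108 to 5417 CPM under vehicle. Neutrophil markers, which would come with blood granulocytes, summed to at most 4.26 CPM, and the granule protease gene Ctsg had a mean of 0.00798 CPM under bexarotene and 0 under vehicle. Red cell markers were at 4.59 to 37.5 CPM under bexarotene and 7.71 to 16.8 CPM under vehicle, with 5 of 5 higher. Choroid plexus and striatum markers had medians of 1.55 and 0.94, with 7 of 7 and 9 of 9 higher, 0 called by edgeR in either and 4 and 0 at an unadjusted p below 0.05. Ttr, the transthyretin gene of the choroid plexus, did not overlap between the groups, and bexarotene libraries differed widely among themselves in both. Their part in the results was not tested.

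**Figure D3:**
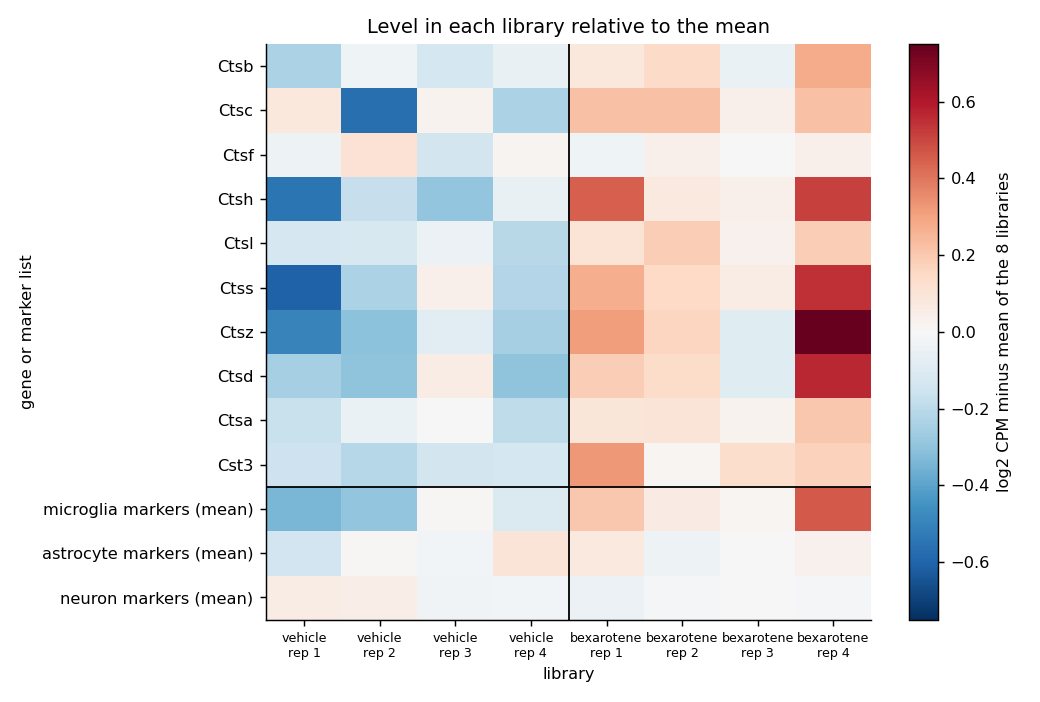
Level of each gene and mean of 3 marker lists (rows) in each library (columns), as log2 CPM minus the mean of the 8 libraries; red is above and blue below that mean. The microglia row is highest in bexarotene replicate 4 (0.46) and lowest in vehicle replicate 1 (-0.34), and the neuron row stays within 0.054 of 0.

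The remaining cathepsins were scarce or absent in this tissue, apart from Ctso, and the protease legumain was listed with them. Of 14 further genes, 5 passed the filter, all 5 were higher (median log2 fold change 0.51), and edgeR called 0, with 1 at an unadjusted p below 0.05. Legumain, the asparagine-specific protease that processes several cathepsins, was abundant. Lgmn was at 106 ± 8.43 CPM under bexarotene and 90.3 ± 8.47 under vehicle (SD, n = 4), a difference of 0.23 ± 0.094 on the log2 scale. Ctso was at 29.8 ± 1.37 and 25.7 ± 3.29 CPM, with 0.22 ± 0.10. The osteoclast enzyme Ctsk, whose log2 fold change is the list's median, was at 1.85 ± 0.367 and 1.30 ± 0.148 CPM. Ctsw (0.286 ± 0.0386 and 0.0646 ± 0.129 CPM) and Ctse (0.491 ± 0.427 and 0.298 ± 0.336 CPM) had larger log2 fold changes. Both were barely expressed, so the list's median rests partly on scarce genes. The genes Ctsj, Ctsq, Ctsr, Cts3, Cts6, Cts7 and Cts8, which belong to a rodent placental group, had a count of 0 in every library.

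Other inhibitors of cathepsins were mostly higher as well. Of 22 cystatins and related genes in the table, 12 passed the filter and 11 of these were higher (median log2 fold change 0.46), with 0 called by edgeR and 3 at an unadjusted p below 0.05. Cystatin B, the inhibitor inside cells, was at 14.2 ± 1.75 against 10.9 ± 1.23 CPM (SD, n = 4) for Cstb, or 0.37 ± 0.13 on the log2 scale (edgeR's quasi-likelihood adjusted p 0.483). Ctla2a, which resembles a cathepsin propeptide, had 0.55 ± 0.18. Cst7, the cystatin of plaque-associated microglia, was at 13.7 ± 7.36 against 10.9 ± 3.01 CPM, a difference smaller than its spread. Several of the others, such as the liver-made kininogen gene Kng1 (1.77 ± 1.30 and 0.437 ± 0.511 CPM), were low and scattered, so the list's median rests partly on them.

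Genes that support the lysosomal proteases were counted in the same way. Of 13 tested partners and other lysosomal proteins, 12 were higher with a median log2 fold change of 0.11, and 3 had an unadjusted p below 0.05. Npc2, which carries cholesterol out of the lysosome, was at 62.9 ± 3.40 against 49.8 ± 3.94 CPM (SD, n = 4), or 0.34 ± 0.081 on the log2 scale (edgeR's quasi-likelihood adjusted p 0.375). Ifi30, a lysosomal thiol reductase of antigen-presenting cells, was at 2.66 ± 0.535 against 1.69 ± 0.326 CPM. The cathepsin A partners Neu1 and Glb1 had 0.064 and 0.11. Of 15 sorting genes, which tag hydrolases with mannose 6-phosphate and carry them to the lysosome, 7 were higher and 8 lower (median -0.0045). Gnptg, a subunit of the tagging enzyme, had 0.13 ± 0.074, and the adaptor subunit gene Ap1g1 had -0.16 ± 0.097. Of 17 proton pump and acidification genes, 8 were higher and 9 lower (median -0.00047), with Atp6v0c at 0.34 ± 0.12 and Atp6v1f at 0.21 ± 0.098. In these 3 lists edgeR called 0 genes; at an unadjusted p below 0.05 there were 0 sorting genes and 1 proton pump gene.

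Of 13 tested regulators of lysosomal transcription, 11 were higher (median log2 fold change 0.095), 0 were called by edgeR and 0 had an unadjusted p below 0.05. Tfeb, the master regulator of lysosomal genes, was at 6.61 ± 0.323 against 5.46 ± 1.64 CPM (SD, n = 4). The related factor Mitf had -0.30 ± 0.14, and Irf8, a factor of microglia and macrophages, 0.37 ± 0.18. The bexarotene receptor genes Rxra and Rxrb had log2 fold changes of 0.016 and 0.0019. The third receptor gene, Rxrg, had 0.80 ± 0.77, at 14.9 ± 10.2 against 8.60 ± 6.05 CPM, with libraries that varied widely in both groups.

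**Figure D4:**
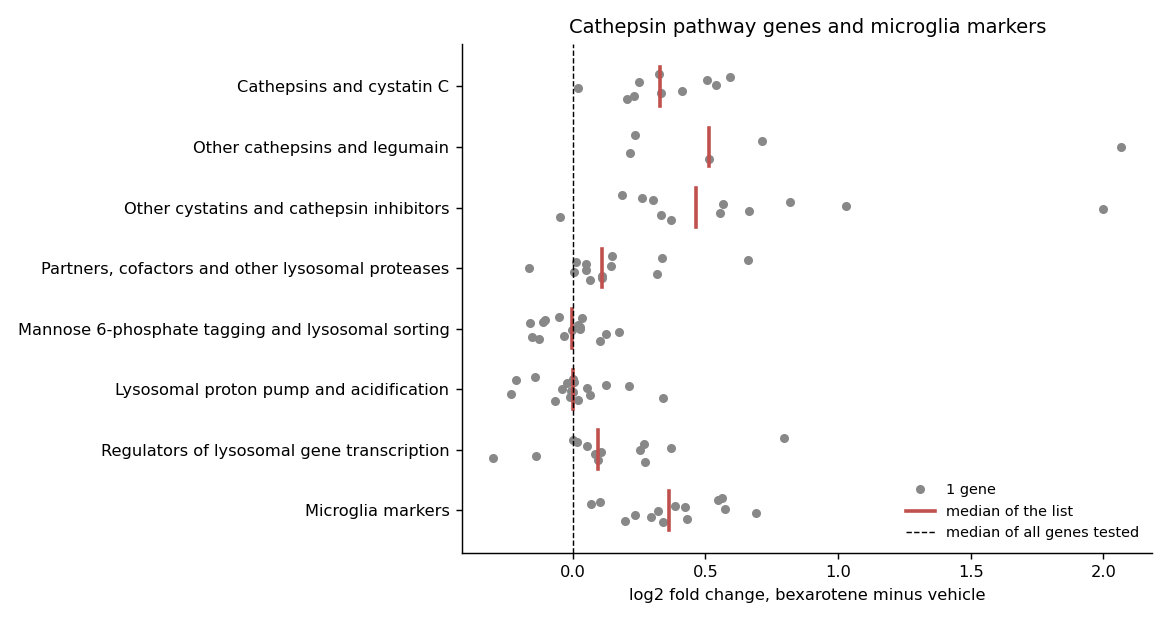
Log2 fold change (x axis, bexarotene minus vehicle) of each tested gene (grey) in 8 lists, with the list's median (red) and the median of all genes tested (dashed). The 10 cathepsin and cystatin C genes centre on 0.33, near the microglia markers at 0.36, while the sorting and proton pump lists have medians of -0.0045 and -0.00047.

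By the same unscaled measure, the genes closest in profile to each of the 10 were listed among genes with a mean of at least 1 CPM. For Ctsd they were Grn, the gene of the lysosomal protein progranulin (root mean square difference 0.063), and Csf1r, the microglial growth factor receptor (0.079). For Ctss they were Csf3r (0.089) and the leukocyte actin-bundling gene Lcp1 (0.092). For Ctsz they were Csf3r (0.059) and the hexokinase gene Hk2 (0.077), and for Ctsh the genes Ifi27l1 (0.12) and C3ar1 (0.12), the receptor of complement fragment C3a. For Ctsb they were Csf1 (0.055) and Prkcz (0.064), and for Ctsc the genes Slc31a2 (0.11) and Anxa6 (0.11). The closest to Ctsa were Sars (0.038) and Csnk2b (0.044), to Ctsl the genes Asna1 (0.036) and Nudt3 (0.039), and to Cst3 the genes Carkd (0.053) and Iah1 (0.053). Ctsf was closest to Amd1 and Amd2 (both 0.031), near-identical copies that held the same values.

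Promoter sequences were available in RefSeq's table (build GRCm38.p6) for 8 of the 10 genes, in 9 windows since Ctsa has 2 listed starts; Ctsb and Ctsh had no entry. The windows run from 250 bases before to 50 bases after the start. Median GC content was 60.3% for the 9 windows and 52.7% for all windows, and the shares below are not matched for it. Both strands were searched for CACGTG, the E-box, and for TCACGTG, the core bound by Tfeb and its relatives, which contains the E-box. CACGTG was found in 4 of the 9 windows, for Ctsa, Ctsd, Ctsf and Ctsl, and in 7.15% of all 32851 windows. TCACGTG was found in 2 of the 9, for Ctsa and Ctsd, and in 3.77% of all. The nuclear receptor half-site AGGTCA was in 5 of the 9 and in 16.3% of all. Pairs of it as direct repeats spaced by 1, 4 or 5 bases (DR1, DR4 and DR5) were in 0 of the 9 windows and in 13, 5 and 3 of all. The 4 stretches with an E-box follow 5′ to 3′ to show where the E-box and, for Ctsa and Ctsd, the full core lie. Capitals mark CACGTG with a T before or an A after it where these complete the core on 1 strand or the other. They lie at chr2:164833731-164833792 (plus strand, Ctsa), chr7:142387890-142388077 (minus strand, Ctsd), chr19:4855056-4855121 (plus strand, Ctsf) and chr13:64370721-64370770 (minus strand, Ctsl).
Ctsa: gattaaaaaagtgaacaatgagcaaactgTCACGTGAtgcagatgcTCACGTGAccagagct
Ctsd: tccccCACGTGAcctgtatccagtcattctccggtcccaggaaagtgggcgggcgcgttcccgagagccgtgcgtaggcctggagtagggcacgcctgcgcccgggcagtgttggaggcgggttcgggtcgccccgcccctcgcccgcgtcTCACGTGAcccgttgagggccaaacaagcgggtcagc
Ctsf: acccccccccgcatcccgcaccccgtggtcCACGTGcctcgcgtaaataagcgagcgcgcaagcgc
Ctsl: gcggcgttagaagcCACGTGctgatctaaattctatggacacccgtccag
The genes with the full core on a strand, Ctsa and Ctsd, had log2 fold changes of 0.20 and 0.41, and those with the E-box alone, Ctsf and Ctsl, had 0.018 and 0.25. The genes whose window held neither, Ctsc, Cst3, Ctss and Ctsz, had 0.33, 0.32, 0.51 and 0.59. These are matches of letters and not measured binding.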

How the data were processed

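RNA from mouse cortex was sequenced in 8 libraries, extracted with a Qiagen kit and prepared with a stranded TruSeq mRNA kit per the labels' protocols. The authors deposited raw counts for each RefSeq transcript, in 28644 rows. The build mm9 and edgeR are named in the submitters' processing notes; aligner, counter, strand setting and annotation were not given in the sources used here. No column of values was left out (0).

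Groups and replicate numbers came from the sample titles. Differences were tested by quasi-likelihood F test in edgeR 4.0.16 (R 4.3.3) with TMM factors, the default filter, robust dispersions and the group as the only term, adjusted over 21285 rows and called below 0.05. SEs derive from the F statistic. Exact permutation tests used log2 CPM (prior count 2, scipy 1.17.1). The test was checked on simulated data. Lengths and GC came from GENCODE M21 transcripts matched by RefSeq accession (97.6% of tested rows). DESeq2 was version 1.42.0.

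The members and the 19 gene lists were chosen with earlier results of these data known. Genes named beside the 10 were, per list, the 2 with the smallest p (at most 4 if called), and per member the 2 with the closest profile; any other was chosen after its values were seen. Deviations of same-numbered libraries correlated at 0.43, 0.28, 0.14 and 0.16 across genes, all above 0.1. The numbers were therefore used as pairs in the replicate block alternatives, from the titles and this check alone. The main fit and the exact permutation tests were unpaired. Some libraries with different numbers correlated more than those with the same number (bexarotene 3 with vehicle 1 at 0.44, bexarotene 4 with vehicle 2 at 0.23), so the values separate replicates 1 and 3 from 2 and 4 more than they match single numbers. Alternatives were RLE, upper quartile or no factors, no filter, DESeq2, the exact test, the replicate block, other row choices, a Y-linked covariate, a length and GC offset with and without the block, and leaving out each library.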

Additional observations from a re-analysis of the deposited data

Results flagged for a closer look

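In groups of 4 libraries, a library was singled out when its gap to the nearest other exceeded Dixon's critical share of the group's range, which chance does in about 1 group in 20; 20 groups were examined. Ctsc in bexarotene replicate 3, at 7.24 CPM, lay below the other 3 bexarotene libraries, which were at 8.19 to 8.22 CPM, with a gap of 0.973 of the range. Ctsd in vehicle replicate 3, at 537 CPM, lay above the other vehicle libraries, which were at 420.4 to 435 CPM, with a gap of 0.874 of the range. Ctsd had a log2 fold change of 0.50 without vehicle replicate 3, and Ctsc one of 0.38 without bexarotene replicate 3.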

How the results depend on the processing

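The number of genes called was 1 of 16069 in the quasi-likelihood test, 83 of 18688 in DESeq2 and 33 of 16069 in the exact test. It was 1 to 2 when libraries were left out in turn. DESeq2 called 1 of the 10 genes (Cst3), where 0.337% of all genes were called higher. The replicate block changed no call among them: their median was 0.34 with it and 0.29 with it and the offset together. The median of the 10 was 0.18 within replicates 1 and 3. Ctsf changed sign with the Y-linked covariate (-0.0094), the length and GC offset (-0.078, and -0.078 with the replicate block), without vehicle replicate 3 (-0.022; 0.065 at most over the left-out libraries) and within replicates 2 and 4 (-0.028). The other 9 genes kept a positive sign in every alternative run. Of the 10 genes, 6 to 9 had an unadjusted p below 0.05 across the alternatives, with 6 when bexarotene replicate 4 was left out. In the main test 4.88% of all genes were higher at this threshold. That share is not given for the alternatives, so their counts have no background of their own. The lowest count of any of the 10 genes in a library was 275 (Ctsc), so counting error is largest for that gene.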
